A study of Homo sapiens with 6 samples.

Results

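The 49 genes described here act in germ cells, in the piRNA pathway or in meiosis, and were chosen by gene symbol from a fixed list of names. That list was drawn up with earlier results of these data known. The deposited gene table holds 43 of them among 35974 genes: 13 genes of the piRNA pathway, 12 genes of the meiotic chromosome axis and recombination, and 18 germ cell regulators and other germ cell genes. PIWIL1, TDRD5, SYCP1, HORMAD2, SPO11 and TEX101 were not analysed here. Poly(A) RNA was sequenced from SU-DHL-8 cells treated with GSK3685032 (3 libraries) or with the solvent DMSO (3 libraries). SU-DHL-8 is an established diffuse large B-cell lymphoma line, and GSK3685032 inhibits DNMT1, the methyltransferase that maintains CpG methylation when DNA is replicated. The labels give lymph node as the tissue and a wild-type DNMT1 genotype for both groups, so the groups differ in the agent, and the results concern a single line. The sources used here give no dose and no duration. For inhibitor replicate 2 the treatment label is GSK3685033 and for replicate 3 it is GSK3685034, names the series design does not use, so each inhibitor library carries its own name and the 3 were grouped by title. The labels do not state whether replicate libraries derive from independent cultures, and the p-values therefore reflect variation among libraries that may be technical.

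Germ cells protect their genome with piRNAs, small RNAs that guide PIWI proteins to transposon transcripts, and Tudor-domain proteins hold this machinery together in granules near the mitochondria. In meiosis, homologous chromosomes are organised along an axis of germline cohesins, HORMA-domain and SYCP proteins, on which programmed DNA breaks are repaired by germline recombinases. Many of these genes are silent in somatic cells, and DNA methylation at CpG-rich promoters and a Polycomb complex that contains E2F6, MGA and MAX are known to keep them so. DNA methylation was not measured in these libraries, which hold RNA only.

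Levels are given as FPKM, the authors' deposited values, and fold changes and tests come from edgeR's quasi-likelihood test on the deposited estimated counts, adjusted over 20783 tested genes and called at an adjusted p of 0.05. The total count per library was 53846028 to 56795603 with the inhibitor and 57451935 to 75304441 with DMSO, and about 4 counts correspond to 1 read pair. Between 12193 and 12379 genes reached 1 FPKM with the inhibitor, against 11151 to 11251 with DMSO. All 10 B cell markers examined, among them CD79A, CD79B and PAX5, were above 1 FPKM in every library. With the inhibitor, edgeR called 5 of them (50%) higher and 5 (50%) lower, against 38.1% and 27.3% of all tested genes. The T cell marker TRAC was also above 1 FPKM in every library, and CD3E was not. DNMT1 RNA averaged 12.7 ± 0.774 FPKM with the inhibitor and 33.0 ± 0.690 with DMSO (SD, n = 3 each), a log2 change of -1.38 (SE 0.0551, adjusted p = 5.38e-08 in edgeR). A level in bulk RNA is a mean over all cells, so fewer cells that express a gene and less RNA per cell cannot be told apart.

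Most of the 43 genes were at or near 0 with DMSO and were detected with the inhibitor. Their summed level was 201, 246 and 221 FPKM in the inhibitor libraries, against 7.27, 7.69 and 7.93 FPKM in the DMSO libraries. The number of members with at least 1 FPKM was 23, 22 and 22 with the inhibitor, against 3, 3 and 4 with DMSO. With the inhibitor, 3 members averaged 10 FPKM or more, 19 averaged 1 to 10, 16 averaged 0.1 to 1 and 5 stayed under 0.1. With DMSO, 4 members averaged at least 1 FPKM, another 4 averaged 0.1 to 1, and 35 stayed under 0.1. Of the 39 members with enough counts to test, edgeR called 36 higher with the inhibitor, 1 lower and 2 neither way. Among all tested genes 38.1% were called higher and 27.3% lower. Of the 39, 20 had no DMSO count in any library, and 30 passed the filter only through their inhibitor counts. That selection favours higher calls. The 9 members that passed by their DMSO counts alone were PIWIL2, STAG3, REC8, SYCE2, DMC1, TEX19, CTCFL, TAF7L and TEX14. Of these, 6 were called higher, 1 lower and 2 neither way, with a median log2 change of 1.27. Among the 15957 genes that passed in that way, 28.2% were called higher and 35.5% lower, with a median of -0.08. Limma on log2(FPKM + 0.5) called 34 members higher and 1 lower, and after quantile normalization 28 higher and 2 lower. The low-level genes MEIOB, SYCP2, SYCE1, SMC1B, TAF7L, LIN28B and BOLL were called in edgeR but not after quantile normalization. LIN28B was already not called in limma without that step.

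**Figure D1:**
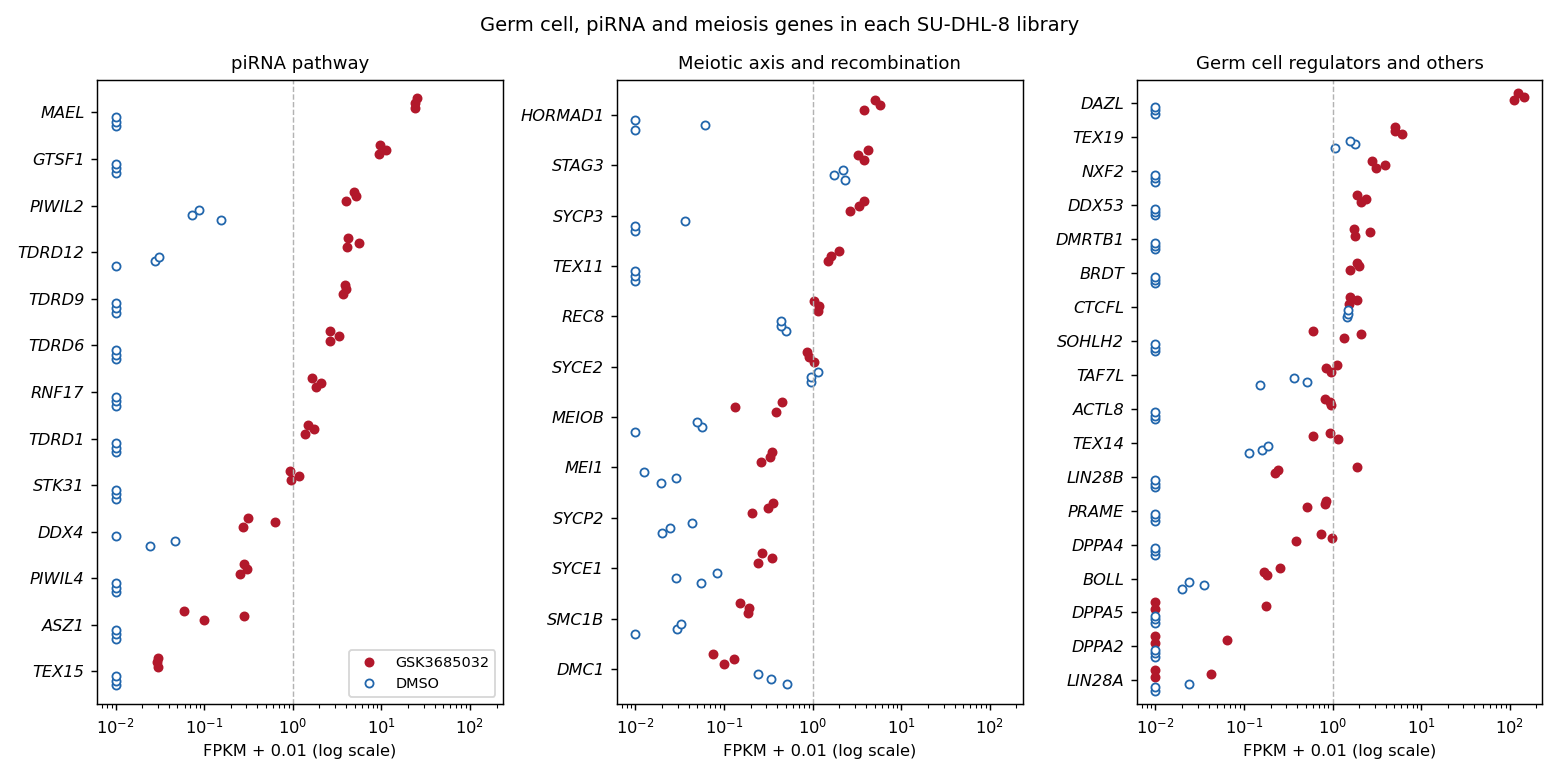
FPKM of each of the 43 genes in each library, grouped by role, on a logarithmic axis of FPKM plus 0.01, with filled points for inhibitor libraries, open points for DMSO libraries and a dashed line at 1 FPKM. DAZL reaches 112 to 145 FPKM in the inhibitor libraries and 0 in the DMSO libraries, while SYCE2 and CTCFL lie at similar levels in both groups and DMC1 lies lower with the inhibitor.

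Genes were counted as switched on where the level was under 0.1 FPKM in every DMSO library and at least 1 FPKM in every inhibitor library. This held for 15 of the 43 members, or 34.9%, and for 522 of the 35974 genes, or 1.45%. As the members were chosen with earlier results of these data known, these shares are descriptive and were not tested. The 15 comprised 7 piRNA pathway genes, 3 meiotic genes and 5 germ cell genes. Inhibitor replicate 2 held the highest level for 12 of the 15, a share of 80.0%, against 283 of all 522 switched-on genes, a share of 54.2%. Across the 3 inhibitor libraries the coefficient of variation of the 15 had a median of 13.2%, with MAEL lowest at 3.11% and DMRTB1 highest at 24.4%, and the median over all 522 was 15.6%. The members in the table lie on 18 chromosomes. The X chromosome holds 4 of them, TEX11, NXF2, DDX53 and TAF7L, of which 3 passed the filter only through their inhibitor counts.

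Promoter sequences from RefSeq (GRCh38.p14), covering 250 bases before to 50 bases after the start of the transcript, are shown for 6 members whose levels represent the range of the data. DAZL, MAEL and GTSF1 had no DMSO counts and the highest inhibitor levels, SYCP3 had almost none with DMSO, STAG3 was already expressed with DMSO, and DMC1 was the member called lower. Each is written 5′ to 3′ along the gene's own strand, and capitals mark CpG dinucleotides, the sites at which DNMT1 maintains methylation.
DAZL, chr3:16605374-16605673, minus strand, 33 CpG: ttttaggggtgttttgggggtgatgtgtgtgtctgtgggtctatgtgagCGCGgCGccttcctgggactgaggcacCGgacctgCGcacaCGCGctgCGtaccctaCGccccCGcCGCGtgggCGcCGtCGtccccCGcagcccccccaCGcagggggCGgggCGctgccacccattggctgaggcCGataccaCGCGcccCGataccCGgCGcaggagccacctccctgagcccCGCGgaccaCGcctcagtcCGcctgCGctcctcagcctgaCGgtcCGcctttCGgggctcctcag
MAEL, chr1:166989030-166989329, plus strand, 27 CpG: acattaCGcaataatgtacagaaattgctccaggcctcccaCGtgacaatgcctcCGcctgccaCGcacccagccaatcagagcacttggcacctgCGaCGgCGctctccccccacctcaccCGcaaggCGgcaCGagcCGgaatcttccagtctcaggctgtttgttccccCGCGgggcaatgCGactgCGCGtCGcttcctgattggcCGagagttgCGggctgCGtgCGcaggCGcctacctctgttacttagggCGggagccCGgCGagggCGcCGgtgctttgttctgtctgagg
GTSF1, chr12:54473553-54473852, minus strand, 10 CpG: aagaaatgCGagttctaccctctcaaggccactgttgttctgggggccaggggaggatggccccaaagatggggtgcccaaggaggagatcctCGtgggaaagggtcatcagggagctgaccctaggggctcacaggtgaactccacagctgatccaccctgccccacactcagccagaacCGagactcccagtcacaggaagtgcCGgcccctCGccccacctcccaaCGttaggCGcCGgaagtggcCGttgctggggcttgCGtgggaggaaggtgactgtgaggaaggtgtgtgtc
SYCP3, chr12:101739413-101739712, minus strand, 24 CpG: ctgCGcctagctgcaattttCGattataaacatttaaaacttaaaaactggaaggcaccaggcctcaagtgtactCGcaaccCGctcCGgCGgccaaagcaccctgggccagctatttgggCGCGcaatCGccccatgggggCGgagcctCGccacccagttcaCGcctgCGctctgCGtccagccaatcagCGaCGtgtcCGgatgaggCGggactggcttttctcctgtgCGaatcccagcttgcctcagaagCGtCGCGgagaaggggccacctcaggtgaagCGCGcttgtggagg
STAG3, chr7:100177474-100177773, plus strand, 20 CpG: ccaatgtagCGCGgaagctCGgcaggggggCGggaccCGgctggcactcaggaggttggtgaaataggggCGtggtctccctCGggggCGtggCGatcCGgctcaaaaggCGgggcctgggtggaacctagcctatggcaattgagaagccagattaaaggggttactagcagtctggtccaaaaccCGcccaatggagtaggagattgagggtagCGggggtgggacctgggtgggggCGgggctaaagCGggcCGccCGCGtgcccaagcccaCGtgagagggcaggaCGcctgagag
DMC1, chr22:38570134-38570433, minus strand, 29 CpG: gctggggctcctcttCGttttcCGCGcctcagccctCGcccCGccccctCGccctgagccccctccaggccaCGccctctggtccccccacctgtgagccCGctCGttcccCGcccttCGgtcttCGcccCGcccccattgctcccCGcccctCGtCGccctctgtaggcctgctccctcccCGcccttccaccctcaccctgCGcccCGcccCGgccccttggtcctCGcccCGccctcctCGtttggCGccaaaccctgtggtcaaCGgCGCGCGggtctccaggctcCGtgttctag
The window of DMC1, which was lower with the inhibitor, held 29 CpG dinucleotides, more than those of MAEL and GTSF1 and fewer than that of DAZL, the 3 genes detected with the inhibitor only.

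Among the 13 piRNA pathway genes in the table, 12 passed the count filter and were tested. All 12 were called higher with the inhibitor by edgeR, with a largest adjusted p of 0.000657. Of these, 11 passed the filter only through their inhibitor counts. Their summed level was 52.5, 59.0 and 55.2 FPKM in the inhibitor libraries, against 0.160, 0.117 and 0.0997 FPKM in the DMSO libraries. MAEL (ENSG00000143194, chromosome 1, 166989089 to 167022214), the Maelstrom protein that is needed for transposon silencing in the germ line, had 24.1, 23.7 and 25.1 FPKM with the inhibitor, against 0 in every DMSO library. The inhibitor libraries lay close together and the groups did not overlap. Its mean of 24.3 ± 0.756 FPKM was at least 1353-fold higher than a floor of 12 counts, about 3 read pairs, over the DMSO group (edgeR adjusted p = 3.36e-09). All folds below for genes with no DMSO counts are bounds against the same floor, and they cover counting error only.

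GTSF1 (ENSG00000170627, chromosome 12, 54455950 to 54473602), a zinc-finger cofactor that enhances target cleavage by PIWI proteins, had 9.28, 11.2 and 9.67 FPKM with the inhibitor, against 0 in every DMSO library. It was at least 450-fold higher (edgeR adjusted p = 3.57e-08), and replicate 2 was the highest of the inhibitor libraries. PIWIL2 (chromosome 8, 22275316 to 22357568), the PIWI protein that binds piRNAs and cuts transposon transcripts, had 4.0, 5.13 and 4.92 FPKM with the inhibitor, against 0.146, 0.0621 and 0.0783 FPKM with DMSO. It was the only piRNA pathway member that passed the count filter by its DMSO libraries alone, and every inhibitor library lay far above every DMSO library. The means were 4.68 ± 0.601 FPKM with the inhibitor and 0.0954 ± 0.0443 FPKM with DMSO (SD, n = 3 each), a log2 change of 5.60 (SE 0.259, adjusted p = 1.18e-07 in edgeR).

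The Tudor-domain proteins, which bind methylated arginines of PIWI proteins, were detected with the inhibitor over a range of levels. TDRD12 (chromosome 19, 32719753 to 32829580), a Tudor protein with a helicase domain, had 4.08, 5.61 and 4.24 FPKM with the inhibitor, against 0, 0.0182 and 0.0213 FPKM with DMSO. The groups did not overlap, and the log2 change was 8.28 (SE 0.365, adjusted p = 8.90e-08 in edgeR) from 22 DMSO counts. TDRD9, a second helicase of the pathway, had 3.67, 3.94 and 3.91 FPKM with the inhibitor and 0 in every DMSO library. Its 3 inhibitor values differed little and gave a bound of at least 374-fold (edgeR adjusted p = 3.44e-08). TDRD6, a scaffold of the chromatoid body of spermatids, had 2.61, 3.30 and 2.59 FPKM with the inhibitor and 0 in every DMSO library. Replicate 2 was again the highest, and the level was at least 455-fold higher (edgeR adjusted p = 5.64e-08).

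Lower in the range, RNF17, a Tudor protein with a RING finger, averaged 1.84 ± 0.204 FPKM with the inhibitor, TDRD1, the scaffold that joins PIWI proteins in mouse testis, averaged 1.53 ± 0.182 FPKM, and STK31, a Tudor protein with a kinase domain, averaged 1.01 ± 0.125 FPKM (SD, n = 3 each). All 3 were at 0 in every DMSO library and were called higher. The helicase DDX4, known as Vasa and used as a marker of germ cells in many animals, stayed low, with 0.266, 0.622 and 0.302 FPKM with the inhibitor against 0.0146, 0.0368 and 0 FPKM with DMSO. The groups did not overlap and the log2 change was 4.35 (SE 0.752, adjusted p = 6.09e-04 in edgeR). PIWIL4, the nuclear PIWI protein that directs DNA methylation to transposons in mouse, averaged 0.271 ± 0.0248 FPKM with the inhibitor and was at 0 in every DMSO library, at least 22.0-fold higher (edgeR adjusted p = 1.40e-05). PIWIL4 shares 15.0% of its exon bases with FUT4 on the same strand, which averaged 0.159 FPKM with the inhibitor and 0 with DMSO. TEX15, which in mouse acts with that PIWI protein, had 0.0204, 0.0197 and 0.0201 FPKM with the inhibitor against 0 in every DMSO library. It was at least 4.38-fold higher (edgeR adjusted p = 6.57e-04), a call that was lost when inhibitor replicate 1 alone stood for its group (edgeR adjusted p = 0.0750). ASZ1, a scaffold on the mitochondrial surface, had 0.0906, 0.270 and 0.0495 FPKM with the inhibitor and 0 in every DMSO library. With 18, 51 and 9 counts in the inhibitor libraries it did not pass the count filter and was not tested. Without the filter edgeR called all 13 piRNA pathway members higher.

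Of 14 other piRNA pathway genes that were tested, 10 were called higher, 3 lower and 1 neither way, with a median log2 change of 1.72 against 0.14 over all tested genes. As 4 of the 14 passed the filter only through their inhibitor counts, the 10 that passed by their DMSO counts alone are also given: 6 higher, 3 lower and 1 neither way, with a median of 0.58 against -0.08 over all such genes. PNLDC1, the exonuclease that trims piRNA ends, averaged 2.28 FPKM with the inhibitor and 0.121 FPKM with DMSO, a log2 change of 4.18 (SE 0.281, adjusted p = 1.11e-06 in edgeR). GPAT2, a mitochondrial acyltransferase-like protein needed for piRNA production in mouse, averaged 1.02 FPKM with the inhibitor and 0.0480 FPKM with DMSO, a log2 change of 4.36 (edgeR adjusted p = 7.19e-07). The co-chaperone FKBP6 averaged 0.761 FPKM with the inhibitor and 0.0892 FPKM with DMSO, a log2 change of 3.10. The genes that fell were all expressed with DMSO. MYBL1, the transcription factor that drives pachytene piRNA genes in mouse and is also expressed in germinal centre B cells, fell to 0.780 FPKM with the inhibitor, against 3.45 FPKM with DMSO, a log2 change of -2.15 (SE 0.156, adjusted p = 1.79e-06 in edgeR). PRMT5, the arginine methyltransferase that modifies PIWI proteins and many somatic proteins, averaged 58.4 FPKM with the inhibitor and 99.8 FPKM with DMSO, a log2 change of -0.78. TDRKH, the mitochondrial Tudor partner of PIWI proteins, averaged 6.45 FPKM with the inhibitor and 7.96 FPKM with DMSO, a log2 change of -0.31 (edgeR adjusted p = 0.00217) that was lost with upper-quartile scaling (adjusted p = 0.0883).

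Meiotic chromosome genes started from more varied levels. All 12 in the table were tested, and edgeR called 10 higher, 1 lower and 1 neither way. Only 4 of them passed the filter by their DMSO counts alone, of which STAG3 and REC8 were higher, DMC1 was lower and SYCE2 was not called. The summed level of the 12 genes was 15.2, 17.4 and 18.5 FPKM with the inhibitor, against 4.32, 3.61 and 4.20 FPKM with DMSO. HORMAD1 (chromosome 1, 150698060 to 150720895), a HORMA-domain protein of the unsynapsed axis, had 3.81, 5.73 and 5.02 FPKM with the inhibitor, against 0, 0.0514 and 0 FPKM with DMSO. The groups did not overlap, and with 10 DMSO counts in all no fold is given (edgeR adjusted p = 2.63e-06). SYCP3 (chromosome 12, 101728648 to 101739469), the protein that builds the lateral element of the synaptonemal complex, had 2.66, 3.36 and 3.78 FPKM with the inhibitor, against 0, 0 and 0.0264 FPKM with DMSO. It was higher with the inhibitor (edgeR adjusted p = 1.50e-06), with 8 DMSO counts. SYCP3 shares 14.8% of its exon bases with CHPT1 on the opposite strand. CHPT1 averaged 1.02 FPKM with the inhibitor and 0.0126 FPKM with DMSO, and the sources used here do not say whether the counting used strand.

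The germline cohesin subunits, which replace mitotic subunits of the ring that holds sister chromatids together, differed in their level with DMSO, where STAG3 and REC8 were expressed and SMC1B was near 0. STAG3 (chromosome 7, 100177563 to 100221488) had 3.83, 3.22 and 4.23 FPKM with the inhibitor, against 2.33, 1.72 and 2.21 FPKM with DMSO. All inhibitor libraries lay above all DMSO libraries, with means of 3.76 ± 0.510 FPKM with the inhibitor and 2.09 ± 0.321 FPKM with DMSO and a log2 change of 0.84 (SE 0.130, adjusted p = 2.85e-04 in edgeR). It shares 18.7% of its exon bases with PVRIG on the same strand, which was lower, at 1.93 FPKM with the inhibitor and 3.94 FPKM with DMSO. STAG3 also shares 13.6% of its exon bases with CASTOR3 on the opposite strand. CASTOR3 was higher, at 4.43 FPKM with the inhibitor and 2.94 FPKM with DMSO. The part of these overlaps in the change of STAG3 was not tested. REC8, the meiotic kleisin that closes the cohesin ring, had 1.14, 1.17 and 1.02 FPKM with the inhibitor, against 0.485, 0.434 and 0.429 FPKM with DMSO. The groups did not overlap, and the log2 change was 1.27 (SE 0.185, adjusted p = 1.94e-04 in edgeR). SMC1B, the germline version of SMC1A, stayed low at 0.174, 0.180 and 0.141 FPKM with the inhibitor, against 0, 0.0197 and 0.0223 FPKM with DMSO. It was called higher with a log2 change of 3.44, a call that was lost when inhibitor replicate 1 alone stood for its group (edgeR adjusted p = 0.0607).

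TEX11, an X-linked protein needed for crossovers in male meiosis, had 1.47, 1.59 and 1.97 FPKM with the inhibitor, against 0 in every DMSO library. It was at least 99.2-fold higher (edgeR adjusted p = 6.80e-07). MEI1, needed for programmed DNA breaks in mouse, and SYCP2, the partner of SYCP3 in the lateral element, averaged under 0.4 FPKM with the inhibitor and changed by log2 4.59 and 3.80. SYCE1, a protein of the central element, changed by log2 2.55, but 53.3% of its exon bases are shared with CYP2E1 on the opposite strand. MEIOB, which coats single-stranded DNA during recombination, had 0.377, 0.123 and 0.439 FPKM with the inhibitor, against 0, 0.0465 and 0.0389 FPKM with DMSO. The log2 change was 3.30 (SE 0.834, adjusted p = 0.00598 in edgeR). MEIOB shares 7.7% of its exon bases with FAHD1 on the opposite strand, at 2.42 FPKM in both groups. Its call was lost with inhibitor replicate 1 alone (edgeR adjusted p = 0.0549).

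A pair of meiotic genes did not follow the others. DMC1 (chromosome 22, 38518948 to 38570204), the meiosis-specific recombinase, had 0.0891, 0.121 and 0.0650 FPKM with the inhibitor, against 0.506, 0.330 and 0.231 FPKM with DMSO. Every inhibitor library lay under every DMSO library, and the log2 change was -1.93 (SE 0.412, adjusted p = 0.00229 in edgeR). The central element gene SYCE2 had 1.02, 0.899 and 0.843 FPKM with the inhibitor, against 0.941, 0.952 and 1.13 FPKM with DMSO. The groups overlapped, and the log2 change was -0.13 (SE 0.240, adjusted p = 0.658 in edgeR), though limma after quantile normalization called SYCE2 lower (-0.44, adjusted p = 0.00515). SYCE2 shares 24.1% of its exon bases with GCDH on the opposite strand. GCDH averaged 8.02 FPKM with the inhibitor and 4.94 FPKM with DMSO, and its part in the level of SYCE2 was not tested.

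Among 16 other meiosis genes tested, 4 were called higher, 6 lower and 6 neither way, with a median log2 change of -0.09. Of the 12 that passed by their DMSO counts alone, 2 were higher, 6 lower and 4 neither way, with a median of -0.60. Those that fell were expressed with DMSO. PSMC3IP and MND1, which form the complex that assists DMC1 in strand exchange, averaged 2.91 and 6.41 FPKM with the inhibitor, against 11.4 and 20.5 FPKM with DMSO. Their log2 changes were -1.96 (SE 0.121, adjusted p = 6.38e-07 in edgeR) and -1.68 (SE 0.0895, adjusted p = 2.68e-07 in edgeR). TRIP13, the ATPase that remodels HORMA-domain proteins in meiosis and in the spindle checkpoint, averaged 4.82 FPKM with the inhibitor and 14.6 FPKM with DMSO, a log2 change of -1.60. RNF212, a crossover factor, averaged 0.693 FPKM with the inhibitor and 0.173 FPKM with DMSO, a log2 change of 1.99 (SE 0.333, adjusted p = 4.93e-04 in edgeR). PRDM9, the methyltransferase that places recombination hotspots, and MEIOSIN, a regulator of meiotic entry, were at 0 with DMSO and averaged 0.109 and 0.184 FPKM with the inhibitor.

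**Figure D2:**
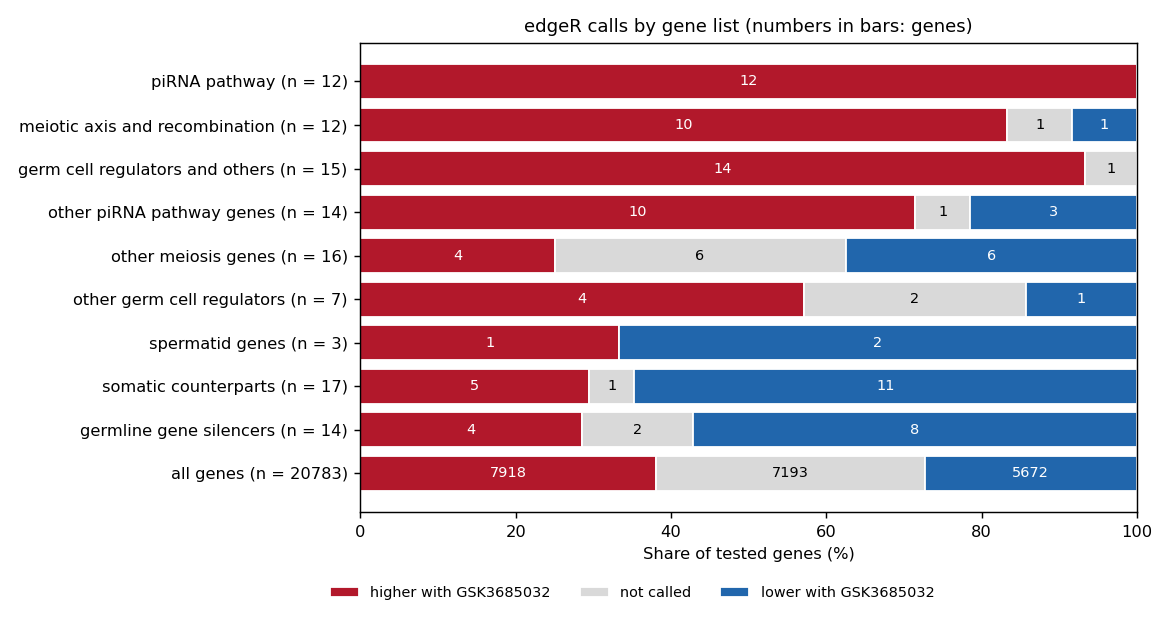
Share of tested genes called higher, not called and called lower with the inhibitor by edgeR, in percent, for the 3 groups of members, the other gene lists and all genes, with gene numbers in the bars. All 12 tested piRNA pathway members are called higher, 11 of which passed the filter only through their inhibitor counts, and the 16 other meiosis genes, of which 12 passed by their DMSO counts alone, hold 4 called higher and 6 lower.

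Germ cell regulators and other germ cell genes held the highest level among the members. Of 18 genes in the table, 15 were tested, and edgeR called 14 higher and 1 neither way. Only 4 of the 15 passed the filter by their DMSO counts alone. DAZL (ENSG00000092345, chromosome 3, 16586792 to 16605423) encodes an RNA-binding regulator of translation in germ cells and had 112, 145 and 125 FPKM with the inhibitor, against 0 in every DMSO library. Its inhibitor counts summed to 82327, and its mean of 127 ± 16.8 FPKM was at least 8012-fold higher (edgeR adjusted p = 8.94e-09). DAZL made up 55.5%, 59.0% and 56.6% of the members' summed FPKM in the inhibitor libraries, and 209 genes of the table had a higher mean FPKM with the inhibitor. Its relative BOLL was detected at 0.171, 0.160 and 0.243 FPKM with the inhibitor, against 0.0102, 0.0250 and 0.0140 FPKM with DMSO, a log2 change of 3.45.

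TEX19, a protein of germ cells and placenta whose mouse relative restrains transposon mobility, had 6.12, 5.02 and 5.06 FPKM with the inhibitor, against 1.07, 1.79 and 1.57 FPKM with DMSO. It was expressed with DMSO, the groups did not overlap, and the log2 change was 1.86 (SE 0.209, adjusted p = 3.49e-05 in edgeR). NXF2, an X-linked mRNA export factor, had 3.08, 3.95 and 2.76 FPKM with the inhibitor and 0 in every DMSO library. Its near-identical copy NXF2B had 0.179, 0.368 and 2.13 FPKM with the inhibitor and 0 in every DMSO library, so the split of reads between the copies is uncertain. The copies together averaged 4.15 FPKM with the inhibitor. DDX53, a DEAD-box helicase of the cancer-testis class, had 2.08, 2.35 and 1.90 FPKM with the inhibitor and 0 in every DMSO library. It was at least 136-fold higher (edgeR adjusted p = 3.29e-07).

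DMRTB1, a DM-domain transcription factor that in mouse acts at the transition from mitosis to meiosis, had 1.76, 2.61 and 1.74 FPKM with the inhibitor and 0 in every DMSO library. It was at least 88.5-fold higher (edgeR adjusted p = 1.49e-06), with inhibitor replicate 2 above the other libraries. BRDT, the testis bromodomain protein, had 1.55, 1.99 and 1.90 FPKM with the inhibitor and 0 in every DMSO library, at least 150-fold higher (edgeR adjusted p = 2.92e-07). CTCFL, the germline paralogue of the insulator protein CTCF, was the member that was not called, with 1.52, 1.89 and 1.58 FPKM with the inhibitor against 1.45, 1.50 and 1.50 FPKM with DMSO. Each inhibitor value lay above each DMSO value, but the log2 change of 0.16 (SE 0.106) was not called (edgeR adjusted p = 0.209). With upper-quartile scaling, which moved the median change of all genes by 0.17, it was called (0.33, edgeR adjusted p = 0.0200), and after quantile normalization its sign turned (-0.15).

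SOHLH2, a transcription factor of early germ cells, varied more among the inhibitor libraries, with 1.34, 2.08 and 0.592 FPKM against 0 in every DMSO library. LIN28B, which blocks maturation of let-7 microRNAs, had 0.215, 0.234 and 1.89 FPKM with the inhibitor and 0 in every DMSO library, so that replicate 3 carried most of its level. The coefficient of variation of LIN28B over the inhibitor libraries was 123%, and its call in edgeR was lost with limma on log2(FPKM + 0.5) (adjusted p = 0.0850). TAF7L, the germ cell paralogue of a TFIID subunit, had 0.961, 0.833 and 1.10 FPKM with the inhibitor, against 0.141, 0.504 and 0.356 FPKM with DMSO. It was called with a log2 change of 1.50 (SE 0.397, adjusted p = 0.00772 in edgeR), the largest adjusted p among the members called higher, and the call was lost with inhibitor replicate 1 alone (edgeR adjusted p = 0.0813). TEX14, a component of the bridges between germ cells, had 1.14, 0.594 and 0.922 FPKM with the inhibitor, against 0.105, 0.150 and 0.178 FPKM with DMSO, a log2 change of 2.60. ACTL8, an actin-like protein, DPPA4, a DNA-binding protein of pluripotent cells, and the tumour antigen PRAME averaged 0.898, 0.693 and 0.721 FPKM with the inhibitor. These 3 were at 0 in every DMSO library and were called higher. The pluripotency-associated genes DPPA5, DPPA2 and LIN28A were seen in inhibitor replicate 2 alone among the inhibitor libraries, at 0.166, 0.0539 and 0.0325 FPKM. LIN28A was also at 0.0140 FPKM in DMSO replicate 3, and these 3 genes had too few counts to test.

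Of 7 other germ cell regulators tested, 4 were called higher, 1 lower and 2 neither way. Of the 4 that passed the filter by their DMSO counts alone, 1 was higher, 1 lower and 2 neither way, with a median log2 change of -0.46. RHOXF1, a homeobox factor of the germ line, averaged 1.64 FPKM with the inhibitor and 0 with DMSO, at least 21.9-fold higher (edgeR adjusted p = 1.68e-05). DND1, an RNA-binding protein of primordial germ cells, averaged 1.34 FPKM with the inhibitor and 0.436 FPKM with DMSO, a log2 change of 1.58 (SE 0.466, adjusted p = 0.0133 in edgeR) that was lost without inhibitor replicate 2 (edgeR adjusted p = 0.0577). TAF4B, a TFIID subunit found in germ cells and B cells, averaged 6.20 FPKM with the inhibitor and 9.68 FPKM with DMSO, a log2 change of -0.65. Of 10 genes of the haploid spermatid stage in the table, 3 had enough counts to test, and edgeR called the linker histone H1-7 higher and TSSK6 and ACRV1 lower. TSSK6, a kinase of spermatids, averaged 1.16 FPKM with the inhibitor and 2.21 FPKM with DMSO, and its call was lost without inhibitor replicate 3 (edgeR adjusted p = 0.0621) and without DMSO replicate 3 (edgeR adjusted p = 0.0556). Of the markers of gonadal somatic cells, AMH averaged 3.38 FPKM with the inhibitor and 7.09 FPKM with DMSO, and the other 5 in the table averaged at most 0.114 FPKM in either group.

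Several members are germline versions or relatives of genes that every cell uses. FPKM values allow the levels of each pair to be set side by side. PIWIL2 reached 50.5% of the FPKM of its relative AGO2 with the inhibitor, against 0.744% with DMSO. This share depends on the relative chosen, as AGO2 and AGO3 were called lower and AGO1 and AGO4 higher. AGO1 and AGO4 averaged 3.57 and 4.29 FPKM with the inhibitor, against 1.56 and 2.23 FPKM with DMSO. STAG3 reached 55.5% of the level of STAG1 with the inhibitor, against 13.6% with DMSO. Both members of that pair moved: STAG1 averaged 6.78 ± 0.0562 FPKM with the inhibitor and 15.3 ± 0.159 FPKM with DMSO, a log2 change of -1.18 (SE 0.0402, adjusted p = 2.45e-08 in edgeR). NXF2 stood at 9.11% of NXF1 with the inhibitor and 0% with DMSO. CTCFL, which was not called, stood at 19.7% of CTCF with the inhibitor and 10.2% with DMSO, and CTCF averaged 8.43 FPKM with the inhibitor and 14.5 FPKM with DMSO. REC8 and SMC1B remained minor beside RAD21 and SMC1A, at 4.82% and 2.15% with the inhibitor, against 1.36% and 0.0922% with DMSO. These percentages also reflect changes of the somatic genes. RAD21, SMC1A and AGO2 averaged 23.1, 7.67 and 9.27 FPKM with the inhibitor, against 33, 15.2 and 12.8 FPKM with DMSO. NXF1 rose, at 35.8 FPKM with the inhibitor and 19.2 FPKM with DMSO. Beside STAG2, STAG3 stood at 45% with the inhibitor and 17.9% with DMSO. Of the 17 somatic counterparts tested, 5 were called higher and 11 lower, or 29.4% and 64.7%. All 17 passed the filter by their DMSO counts alone, and among all such genes 28.2% were called higher and 35.5% lower.

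**Figure D3:**
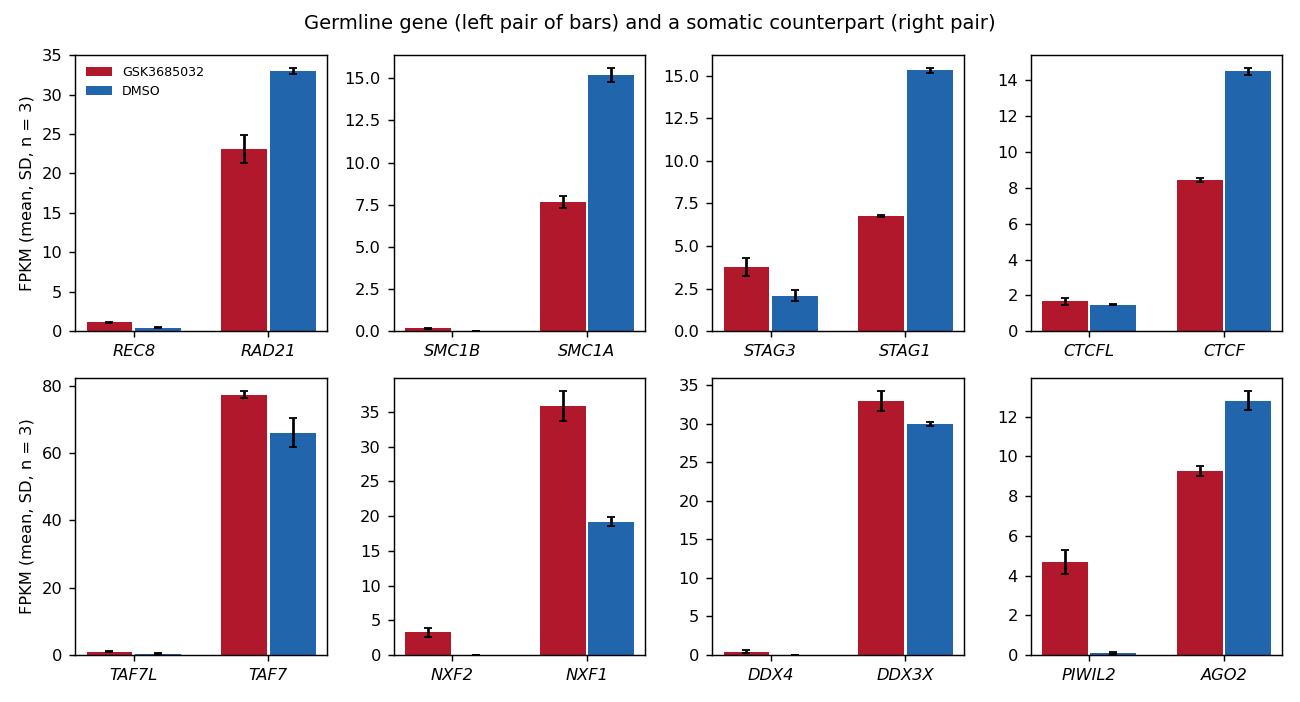
Mean FPKM of germline genes and of their somatic counterparts with the inhibitor and with DMSO, as bars with the SD of 3 libraries, each pair of genes on its own linear axis from 0. PIWIL2 stands nearer to AGO2 with the inhibitor (50.5% of its level, against 0.744% with DMSO), and STAG1 lies lower with the inhibitor while STAG3 lies higher.

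Genes known to silence germline promoters were also read. Of 14 tested, 4 were called higher and 8 lower, or 28.6% and 57.1%. All 14 passed the filter by their DMSO counts alone, and among all such genes 28.2% were called higher and 35.5% lower. Beside DNMT1, the Polycomb complex genes L3MBTL2 and PCGF6 averaged 7.02 and 3.66 FPKM with the inhibitor, against 11.9 and 6.70 FPKM with DMSO. Their log2 changes were -0.77 (SE 0.0577, adjusted p = 2.26e-06 in edgeR) and -0.88 (SE 0.104, adjusted p = 4.90e-05 in edgeR). MGA and E2F6 were also called lower, with log2 changes of -0.54 (adjusted p = 2.53e-06 in edgeR) and -0.35 (adjusted p = 0.00183 in edgeR). RNF2, the ubiquitin ligase of the same complex, averaged 14.6 FPKM with the inhibitor and 11.9 FPKM with DMSO, a log2 change of 0.29 (SE 0.0526, adjusted p = 7.80e-04 in edgeR). MAX, the partner of MGA, averaged 16.7 FPKM with the inhibitor and 14.6 FPKM with DMSO, a log2 change of 0.19 (SE 0.0477, adjusted p = 0.00630 in edgeR). The de novo methyltransferase DNMT3A averaged 1.73 FPKM with the inhibitor and 0.970 FPKM with DMSO, a log2 change of 0.83 (SE 0.0774, adjusted p = 9.92e-06 in edgeR). The part of these changes in the levels of the germ cell genes was not tested.

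RefSeq promoter windows were matched by symbol for 35 of the 43 members, and the start lay within 100 bases of the deposited gene start for 28. The windows of DDX4, LIN28B and ASZ1 lay 28868, 4349 and 630 bases from it. The number of CpG dinucleotides in the 300 bases had a median of 21 over the 35 members (range 1 to 41), against 14 over all 35116 windows and 24 over the windows of tested genes. The switched-on members had a median of 20.5, against 18 for the 395 windows of all switched-on genes. TDRD9 and SYCP2 had 41 CpG dinucleotides each, and CTCFL, which was expressed with DMSO and not called, had 2. The lowest number, 1, was that of DDX4, whose window lies far from the deposited gene start. The letters GCGGGA, a core recognised by E2F proteins, were searched on both strands and occurred in 16 of the 35 windows, or 45.7%, against 26.9% of all windows and 37.1% of those of tested genes. The palindrome CACGTG, an E-box bound by MAX with its partners, occurred in 8 of the 35, or 22.9%, against 7.26% of all windows and 9.17% of those of tested genes. The 2 motifs can overlap by at most 1 base. By role, GCGGGA was found in 8 of 10 meiotic windows, among them SYCP3 and STAG3, in 5 of 10 piRNA windows and in 3 of 15 germ cell windows. CACGTG was found in 4 of 10 piRNA windows, those of MAEL, STK31, TDRD1 and TDRD12, in 1 of 10 meiotic windows and in 3 of 15 germ cell windows. GCGGGA occurred in 35.7% of the windows of switched-on members and 52.4% of those of the other members. For CACGTG these shares were 28.6% and 19%. In the sequences shown, MAEL and STAG3 hold both motifs, SYCP3 holds GCGGGA, and DAZL, GTSF1 and DMC1 hold neither.

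**Figure D4:**
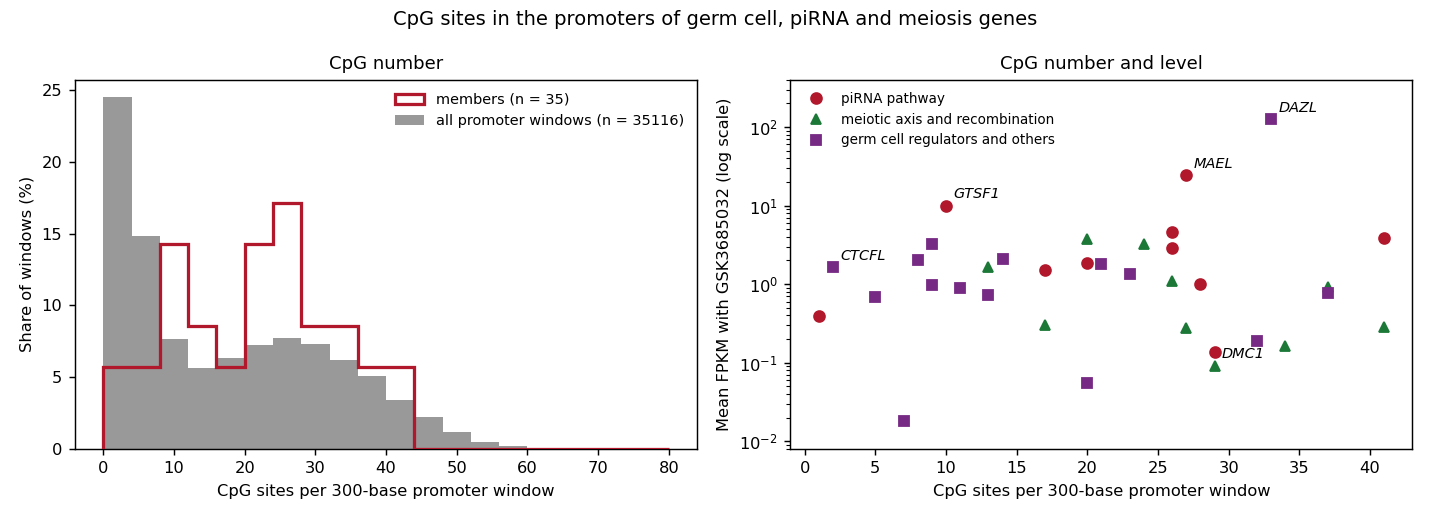
Left, share of promoter windows in percent by number of CpG dinucleotides in 300 bases, for 35 members and for all 35116 windows. Right, mean FPKM with the inhibitor on a logarithmic axis against that number for each of the 35 members, by role. Members lie from 1 to 41 CpG dinucleotides, and the highest level, that of DAZL, belongs to a window with 33. The value of 1 is that of DDX4, whose window lies 28868 bases from the deposited gene start.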

How the data were processed

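Libraries were made from oligo(dT)-selected RNA with dUTP marking of the second strand and sequenced from both ends, per the labels' protocols. The submitters' processing notes list HISAT2 2.2.1, StringTie 2.1.6, cutadapt 1.9, edgeR and DESeq2 without roles, and name the mouse build mm10, whereas the deposited gene IDs are human and their positions were read as GRCh38. The authors deposited an FPKM value and an estimated count for each gene and library, per the file headers. The estimated counts are whole numbers that gather at multiples of 4 (on average 1319.8 genes per library at 4, against 725.8 at 3 and 474.5 at 5), so 4 counts were read as 1 read pair and precision at low levels is set by few pairs. The sources used here do not say how the counts were made or whether they respect strand.

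Counts were tested with edgeR 4.0.16 in R 4.3.3 (filterByExpr with its minimum count of 10, TMM factors, quasi-likelihood test, two-sided) across all genes, and p-values were adjusted by the Benjamini-Hochberg method over 20783 genes. Genes with 1 to 12 DMSO counts are given without a fold. Alternatives were DESeq2 1.42.0, limma 3.58.1 on log2(FPKM + 0.5), other scalings and filters, a replicate block, and leaving out libraries. The members and lists were chosen with earlier results of these data known. Values per library are given for called members among the 6 highest of each role, for members called lower and for members with a mean of at least 1 FPKM with DMSO, and up to 3 called genes per direction are named from each other list. Members and other genes given beyond that rule were chosen after their values were seen. Promoter windows come from RefSeq. A few genes that the naming rule selects are not reported here.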

Additional observations from a re-analysis of the deposited data

How the results depend on the processing

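The 39 tested members were recomputed under up to 18 alternatives, which gave 676 values, since some filters left a member untested. Of the 39, 29 kept their direction and their side of the threshold wherever a value could be had. Leaving out each replicate in turn gave 36 to 37 members called higher and 1 lower, with 12 to 13 piRNA members higher, 10 meiotic members higher and 1 lower, 14 germ cell members higher and 15 to 16 members switched on. With the replicate block edgeR called 36 higher and 1 lower. Same-numbered libraries deviated together with r of 0.0752, 0.0673 and 0.000326 over 13135 genes, none over 0.1, so the numbers were not taken as pairs. DESeq2 called 37 higher. Counts divided by 4, the scale of read pairs, gave 33 higher of 36 tested members. On that scale TEX15, MEIOB and SMC1B did not pass the filter and were not tested. Testing only genes with at least 1 FPKM in 3 libraries left 20 members, all called higher. That gave 5 meiotic and 7 germ cell members higher and 0 meiotic members lower, since fewer genes were tested. The 15 switched-on members can pass this filter only by their inhibitor levels, so it is no check on their calls. Quantile normalization with limma called 28 members higher and 2 lower, and 6 meiotic members higher and 2 lower; the cause was not tested. Limma on log2(FPKM + 0.5) without quantile normalization called 34 members higher and 1 lower. Called in edgeR but not after quantile normalization were MEIOB, SYCP2, SYCE1, SMC1B, TAF7L, LIN28B and BOLL. Of these, LIN28B was also not called in limma without quantile normalization. A stricter rule for switched-on genes, with at least 5 FPKM, left 3. The change of SYCE2 turned to 0.04 with upper-quartile scaling and to 0.04 with inhibitor replicate 1 alone, and it was called lower after quantile normalization (-0.44). That of CTCFL turned to -0.15 after quantile normalization, and it was called higher with upper-quartile scaling (0.33) and with the filter at 1 FPKM (0.26). Upper-quartile scaling moved the median change of all tested genes by 0.17 and quantile normalization by -0.15. Depth limits genes under about 0.1 FPKM, which rest on few read pairs.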
